A study of Homo sapiens with 3 samples.

Results

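Of the 96805 SIRT1 peaks called in THP1 cells, 1288 (1.33%) lay on sequences of the human assembly hg38 other than chromosomes 1 to 22, X, Y and the mitochondrial genome. They were selected by the name of the sequence alone, and divided by that name into 923 peaks on alternate contigs, 221 on unlocalised contigs and 144 on unplaced contigs. THP1 is a human monocytic leukaemia line. All samples were wild type and had been treated for 24 h with PMA, a phorbol ester used to differentiate monocytic lines into adherent macrophage-like cells. Chromatin was immunoprecipitated with an antibody to SIRT1 in 1 library and with an antibody to histone H3 acetylated on lysine 27 (H3K27ac) in another, and an input without antibody was the third sample. A peak list was used for each antibody; none was used for the input. Each antibody has 1 library, so no replicate spread and no test between conditions exist, and the 95% exact binomial intervals below cover counting error only. No untreated cells are among the samples.

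An alternate contig is another version of a stretch that the primary chromosomes already hold, such as a haplotype of the major histocompatibility complex. An unlocalised contig is known to belong to a chromosome but has no position on it, and an unplaced contig has no assigned chromosome. Many unlocalised and unplaced contigs hold repeats, among them units of ribosomal DNA, the tandem genes from which ribosomal RNA is transcribed in the nucleolus. SIRT1 is a deacetylase that uses NAD and acts on histones and other proteins. It is known as a subunit of a nucleolar silencing complex that acts on ribosomal DNA, and H3K27ac marks active promoters and enhancers. The sequences under the peaks were not used here, so none is printed.

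The label of the cells was checked in the H3K27ac list, as a peak within 1 kb of either end of a gene. Of 8 monocyte and macrophage genes 7 had one, with SPI1 (which encodes PU.1) at a fold of 109, FCER1G at 98.8, CEBPB at 92.2, CSF1R at 68.3, TYROBP at 61.3, ITGAM at 13.9 and CD14 at 11.0; the lysozyme gene LYZ had none. Of 16 markers of other cell types 4 had one: the NK cell gene NKG7 at 14.96, above ITGAM and CD14, KLF1 at 8.92, CD79A at 6.96 and ALAS2 at 5.16. The 4 epithelial genes had none. The share of all genes with such a peak is not given here, so these counts alone do not identify the cell type. The fold is the authors' own value from the peak caller, fragments plus 1 over local background plus 1 at the highest point of the peak (its summit), and is used within its own list only. The total number of reads per library is not given in the sources used here.

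The classes of contig differed between the lists in opposite directions. The lists were filtered differently, with a smallest −log10 q (q is the adjusted p) of 0 for SIRT1 and 1.30 for H3K27ac. The shares therefore compare the lists as deposited, not the antibodies at the same limit. Of all SIRT1 peaks 144 (0.149%) reached a q of 0.05, and 0 of these were on alternate contigs. The exact interval for 0 of 923 alternate peaks runs to 0.399%, so this count shows no difference from the list. Alternate contigs held 0.953% of SIRT1 peaks (interval 0.893 to 1.02) and 2.95% of H3K27ac peaks (2.80 to 3.10). The H3K27ac share was thus 3.09 times the SIRT1 share. Of the 1483 alternate H3K27ac peaks, 543 lay on 7 haplotype contigs of 1 region of chromosome 6. These 7 held 41 of the 923 alternate SIRT1 peaks, and the ratio without them was not computed. Unlocalised contigs held 0.228% of SIRT1 peaks (0.199 to 0.260) and 0.0497% of H3K27ac peaks (0.0322 to 0.0734). Unplaced contigs held 0.149% of SIRT1 peaks (0.125 to 0.175), and their H3K27ac share was again 0.0497%, since each of these classes had 25 H3K27ac peaks. Unlocalised and unplaced contigs together thus had a SIRT1 share 3.79 times the H3K27ac share. In none of the 3 classes did the intervals of the lists overlap, but the intervals count peaks as independent, and many peaks shared a contig.

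**Figure D1:**
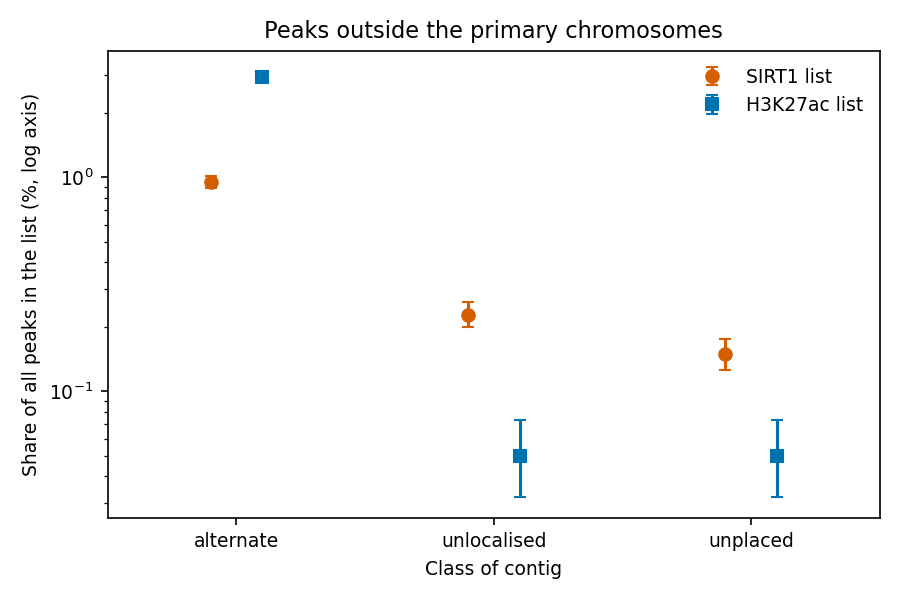
Share of each peak list on alternate, unlocalised and unplaced contigs (vertical axis in percent, logarithmic); points are the share in 1 library and bars the 95% exact binomial interval. The SIRT1 share is below the H3K27ac share on alternate contigs (0.953% against 2.95%) and above it on unlocalised (0.228% against 0.0497%) and unplaced contigs (0.149% against 0.0497%). The lists were filtered at different limits.

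Peak density sets the same counts against length. Both lists share the length of a class, so the contrast between them restates the shares and is not separate support. A contig without an H3K27ac peak entered, and got its length, through SIRT1 alone, and a contig without a SIRT1 peak through H3K27ac alone. Contigs whose last peak in either list ended at or past 0.1 Mb were pooled, with that end as their length, which overstates the density where a contig runs on. On 155 alternate contigs SIRT1 had 9.63 peaks per Mb and H3K27ac 16.4, against 30.9 and 15.8 on the primary chromosomes. The 155 include the 7 haplotype contigs of chromosome 6, with 41 SIRT1 and 543 H3K27ac peaks. On 21 unlocalised contigs the densities were 36.3 for SIRT1 and 4.08 for H3K27ac, and on 15 unplaced contigs they were 48.5 and 4.45. Pooled in this way, SIRT1 density on alternate contigs was below that of the primary chromosomes and H3K27ac density was close to it, without regard to the densities of the parent chromosomes. On the other contigs H3K27ac density was below that of the primary chromosomes.

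The alternate SIRT1 peaks were spread over 185 contigs, with a median of 3 each and 42 contigs with 1. The contig with the most was chr15_KI270905v1_alt with 73, followed by chr7_KI270803v1_alt with 35, chr16_KI270853v1_alt with 31, and chr17_KI270857v1_alt and chr8_KI270821v1_alt with 30 each. H3K27ac had 58, 1, 68, 60 and 9 peaks on these contigs in turn. Chr7_KI270803v1_alt therefore carried SIRT1 peaks at 33.2 per Mb, close to the 35.0 of chromosome 7 itself, with 1 H3K27ac peak. By parent chromosome, the contigs of chromosome 8 held 124 SIRT1 peaks, those of chromosome 15 held 100, of chromosome 1 87, of chromosome 17 79 and of chromosome 5 78.

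Of 29 alternate contigs whose last peak ended at or past 0.5 Mb, 28 had fewer SIRT1 peaks per Mb than their parent chromosome, with a median ratio of 0.167; the exception was chr1_KI270763v1_alt at 1.07. For H3K27ac 21 of the 29 were below the parent, with a median ratio of 0.604. The 29 are not separate regions. They include 7 haplotype contigs of chromosome 6, with SIRT1 ratios from 0.0147 to 0.0727, and contigs of chromosome 19 with ratios from 0 to 0.162. All of these lay below the SIRT1 median of 0.167, which leans on them. Both chr19_GL949750v2_alt and chr19_GL949753v2_alt had 0 SIRT1 peaks and entered through H3K27ac alone. The 7 contigs that carry haplotypes of the major histocompatibility complex on chromosome 6 held 41 SIRT1 peaks, between 2 and 10 each. The same 7 held 543 H3K27ac peaks, between 31 and 104 each. An overlap of at least 1 base with an H3K27ac peak was found for 0 of the 41 SIRT1 peaks, where 0.745% of all SIRT1 peaks had one, so a count of 0 among 41 shows no difference. On them SIRT1 density ran from 0.428 per Mb on chr6_GL000253v2_alt to 2.11 on chr6_GL000251v2_alt, against 29.1 on chromosome 6.

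On unlocalised contigs the counts were led by chr16_KI270728v1_random, with 51 of the 221 peaks and no H3K27ac peak. It is the longest of them by its last peak, 1.87 Mb, and its 27.3 SIRT1 peaks per Mb compare with 34.9 on chromosome 16. Next were chr14_GL000009v2_random and chr1_KI270706v1_random with 15 each, chr1_KI270712v1_random with 11, and chr17_GL000205v2_random and chr3_GL000221v1_random with 10 each. Among unplaced contigs chrUn_KI270442v1 had 16, chrUn_GL000195v1 13, chrUn_GL000216v2 12, chrUn_GL000224v1 11, and chrUn_GL000218v1 and chrUn_KI270742v1 9 each. Contigs with SIRT1 peaks and no H3K27ac peak numbered 59 of 76 among unlocalised and unplaced contigs and held 265 of their 365 SIRT1 peaks (72.6%). Among alternate contigs there were 81 of 185, holding 271 of 923 (29.4%).

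**Figure D2:**
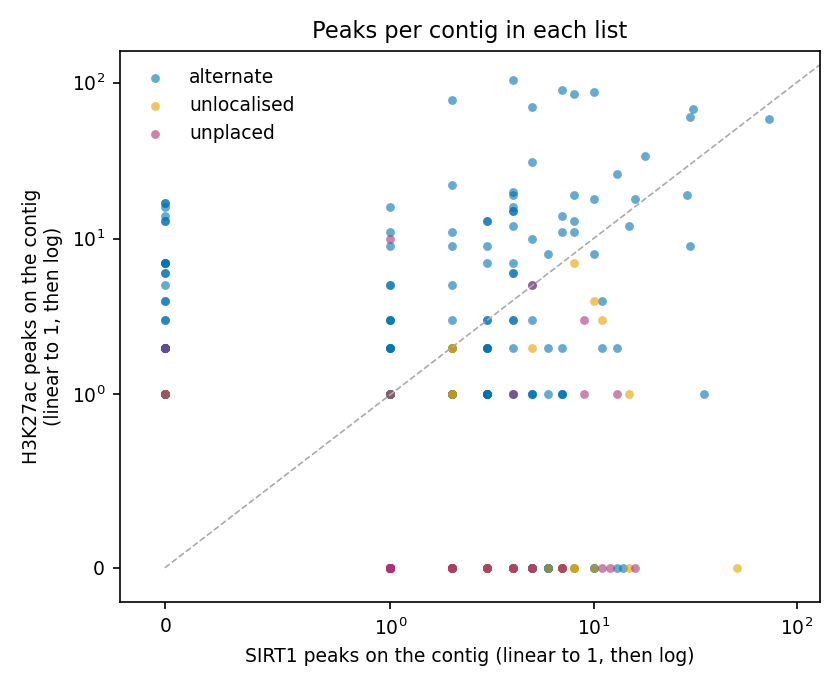
Number of SIRT1 peaks (horizontal) and H3K27ac peaks (vertical) on each contig with a peak in either list, on axes that are linear to 1 and logarithmic above; the dashed line marks equal numbers, and darker points overlap. Alternate contigs lie on both sides of the line, with the chromosome 6 haplotypes at 31 to 104 H3K27ac peaks and at most 10 SIRT1 peaks, while 59 of the 76 unlocalised and unplaced contigs with a SIRT1 peak lie at 0 H3K27ac peaks. Of all contigs with a SIRT1 peak, 140 of 261 lie there.

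The number of fragments at the summit and the expected background there were recovered from the deposited fold and −log10 p. The lowest background in the SIRT1 list, 0.362 fragments, is called the floor. A peak on the floor can take only a few values: 2 fragments gave a fold of 2.20, 3 gave 2.94, 4 gave 3.67 and 5 gave 4.41. The floor was the background of 68.5% of all SIRT1 peaks, and of 833 of 923 alternate peaks (90.2%, interval 88.2 to 92.1). Of unlocalised peaks 124 of 221 were on it (56.1%, 49.3 to 62.8), and of unplaced peaks 46 of 144 (31.9%, 24.4 to 40.2).

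Alternate peaks rested on the fewest fragments. At their summit 494 of 923 (53.5%, interval 50.2 to 56.8) had 2 fragments, against 39.7% on the primary chromosomes (39.4 to 40.0), and no alternate peak had more than 5. Unlocalised peaks had 2 fragments in 31.7% of cases (25.6 to 38.3) and 6 or more in 2.71% (1.0 to 5.82). Unplaced peaks had 2 in 18.8% (12.7 to 26.1) and 6 or more in 13.2% (8.13 to 19.8), against 0.878% on the primary chromosomes (0.820 to 0.940). The median fold followed these counts, at 2.20 for alternate, 2.82 for unlocalised, 2.83 for unplaced and 2.78 for primary peaks. Neither is separate from the background, because the list has a limit on p. With 2 fragments a peak had a −log10 p of 2.22 on the floor, near that limit, and less on a higher background. On the floor alone, 478 of 833 alternate, 59 of 124 unlocalised, 21 of 46 unplaced and 31652 of 65308 primary peaks had 2 fragments. How much of the contrast between classes comes from the background was not tested. The median width was 287 bp, 312 bp and 330 bp for the 3 classes of contig and 301 bp on the primary chromosomes.

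Backgrounds above 2 floors were found at 2.28% of all SIRT1 peaks. On contigs they were found at 72 of 1288 peaks (5.59%, interval 4.40 to 6.99), made up of 5 of 923 alternate peaks (0.542%, 0.176 to 1.26), 24 of 221 unlocalised peaks (10.9%, 7.08 to 15.7) and 43 of 144 unplaced peaks (29.9%, 22.5 to 38.0). On the primary chromosomes the share was 2.23% (2.14 to 2.33). The highest alternate background was 3.03 floors, the highest unlocalised 167 and the highest unplaced 230. Primary peaks reached 524 floors. The share above 2 floors was therefore lowest for alternate, higher for unlocalised and highest for unplaced peaks. The intervals do not overlap, but they count peaks as independent, and peaks on a contig can share their background. The 43 unplaced peaks lay on 18 contigs, with 8 on chrUn_GL000224v1 and 7 on chrUn_GL000218v1. The 24 unlocalised peaks lay on 11 contigs. The share of H3K27ac peaks above 2 floors of their own list was 7.28% for alternate, 56.0% for unlocalised and 52.0% for unplaced peaks, against 33.6% on the primary chromosomes. Alternate peaks were lowest in both lists, and the unlocalised and unplaced H3K27ac peaks, 25 each, could not be ordered within their intervals. What part the background has in the differences between classes was not tested.

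**Figure D3:**
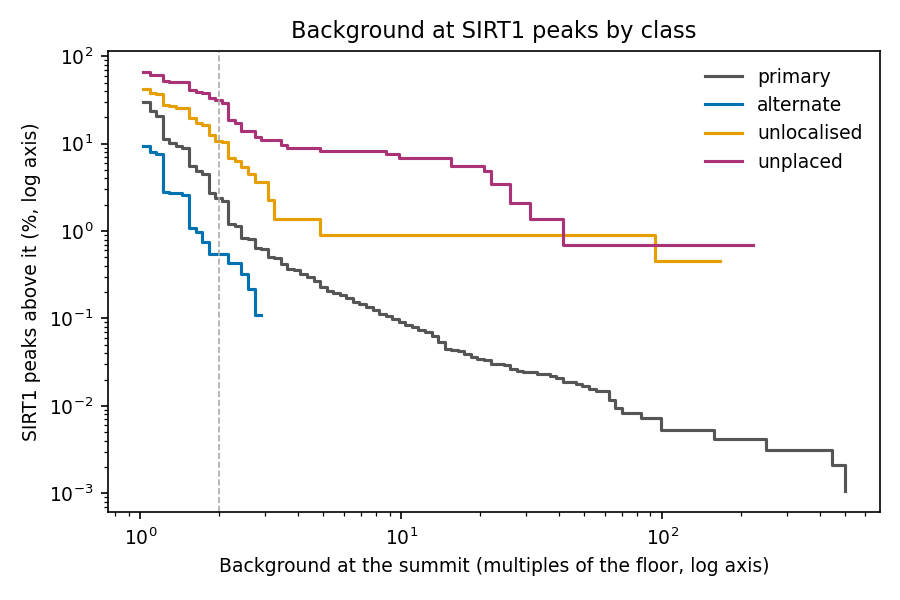
Share of SIRT1 peaks (vertical, percent, logarithmic) whose background at the summit exceeds the value on the horizontal axis (multiples of the lowest background in the list, logarithmic), for primary chromosomes and 3 classes of contig; the dashed line marks 2 floors. At that line the curves stand at 0.542% for alternate, 2.23% for primary, 10.9% for unlocalised and 29.9% for unplaced peaks.

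High backgrounds were gathered on few contigs. The 14 contig peaks above 5 floors lay on 7 contigs: 5 on chrUn_GL000224v1, 3 on chrUn_KI270744v1, 2 on chr22_KI270733v1_random, and 1 each on chrUn_GL000226v1, chrUn_KI270334v1, chrUn_KI270391v1 and chrUn_KI270395v1. Except on chr22_KI270733v1_random, these contigs had no H3K27ac peak. On chrUn_GL000224v1 the 5 peaks between positions 262 and 19243 had backgrounds of 15.04 to 41.0 floors, the 3 between 24995 and 40737 had 2.69 to 4.85, and the 3 beyond 52928 were on the floor. On chrUn_KI270744v1 the 4 peaks up to position 89042 had at most 1.82 floors and the 3 from 111178 to 123123 had 9.75 to 30.0. The raised background was thus local within each of these contigs.

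A more even rise was seen on some other contigs. On chrUn_GL000218v1 all 9 peaks had between 1.71 and 3.30 floors, and 7 were above 2. On chr17_GL000205v2_random 6 of 10 peaks were above 2 floors, up to 4.85 at chr17_GL000205v2_random:3959-4283. On chr14_GL000009v2_random 4 of 15 were, up to 2.38. On the long chr16_KI270728v1_random 1 of 51 was, and on chr15_KI270905v1_alt 0 of 73.

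A q of at most 0.05 (q is p adjusted for the number of sites tested, as the peak caller gave it) was reached by 0.149% of all SIRT1 peaks. On contigs 8 of 1288 reached it (0.621%, interval 0.269 to 1.22), against 136 of 95517 on the primary chromosomes (0.142%, 0.119 to 0.168). The 8 were 7 of 144 unplaced peaks (4.86%, 1.98 to 9.76), 1 of 221 unlocalised peaks (0.452%, 0.0115 to 2.50) and 0 of 923 alternate peaks (exact interval up to 0.399%; the limit of 3 counts that a count of 0 allows is 0.325%). The interval for alternate peaks holds the 0.149% of the list, so their count of 0 shows no difference from it. On the floor a peak needed 6 fragments for this q, and 72 primary peaks had 6 or 7 there. No contig peak on the floor had more than 5. Leaving out chrUn_GL000224v1, which held 2 of the 8, gave 0.470%. At the other end, 86.3% of all SIRT1 peaks and 1146 of 1288 contig peaks (89.0%) had a −log10 q of 0. The counts of peaks given here are thus counts of calls, most of them far from a q of 0.05.

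The unlocalised peak with that q was chr22_KI270733v1_random:158554-158878, which had the highest −log10 q of all 96805 SIRT1 peaks, 13.7, from 147 fragments on a background of 167 floors and a fold of 2.40. Among unplaced peaks, chrUn_GL000224v1:6435-6859 came next with a −log10 q of 4.77, a fold of 3.80 and 32 fragments. Its neighbour chrUn_GL000224v1:3696-4590 had 1.38, a fold of 2.47 and 38 fragments on 41.0 floors. These 3 peaks sit on contigs where other peaks had raised backgrounds as well.

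The remaining 5 lay 1 to a contig. ChrUn_KI270391v1:864-1229 had a −log10 q of 2.37 with a fold of 3.12 on 24.7 floors, and chrUn_KI270395v1:199-1010 had 2.28 with a fold of 1.66, from 139 fragments on 230 floors. ChrUn_KI270334v1:256-691 had 1.76 with a fold of 3.20 on 19.7 floors, and chrUn_GL000226v1:13859-14124 had 1.38 with a fold of 3.93 on 8.49 floors. The first 3 of these contigs carried their peak within 1229 bases of the contig's start. ChrUn_KI270442v1:184385-184668 differed from the others, with the highest fold of any contig peak, 5.05, from 7 fragments on 1.61 floors and a −log10 q of 1.37. The other 15 peaks of that contig had 2 to 4 fragments.

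Peaks with that q thus looked different on contigs and on the primary chromosomes. On contigs 7 of 8 were above 2 floors (87.5%, interval 47.3 to 99.7), their median fold was 3.16 and their median number of fragments 31. On the primary chromosomes 24 of 136 were (17.6%, 11.6 to 25.1), the median fold was 5.14 and the median number of fragments 6. In number, 11 primary and 7 contig peaks with that q lay beyond 8 floors. At a set q, fold and fragments are tied to the background, so the medians are not separate differences. Of contig peaks above 5 floors 7 of 14 reached the q (50%, 23.0 to 77.0), and of primary peaks above 5 floors 14 of 216 (6.48%, 3.59 to 10.6).

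**Figure D4:**
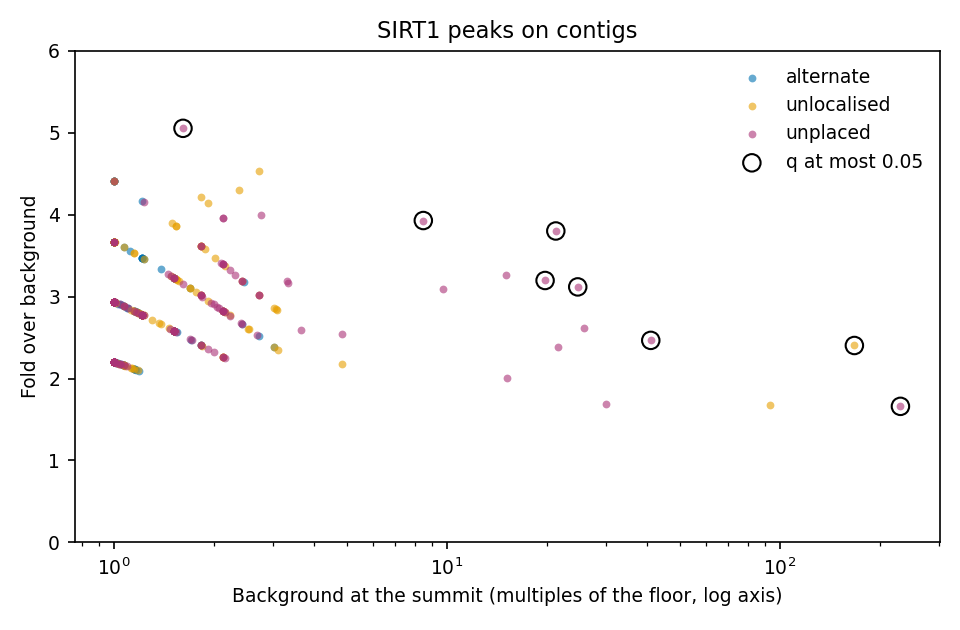
Fold over background (vertical) against the background at the summit (horizontal, multiples of the lowest background in the list, logarithmic) for the 1288 SIRT1 peaks on contigs, coloured by class; open circles mark the 8 that reached q 0.05. Diagonal bands are peaks with the same small number of fragments, alternate peaks end at 3.03 floors, and 7 of the 8 circled peaks lie beyond 8 floors.

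Outside these 8 the highest folds in each class came from few fragments. The highest alternate fold, 4.41, was shared by 5 peaks with 5 fragments on the floor: chr10_GL383545v1_alt:61994-62332, chr1_KI270762v1_alt:319814-320200, chr1_KI270765v1_alt:137625-137907, chr7_KI270809v1_alt:2862-3148 and chr8_KI270816v1_alt:203828-204122. Their −log10 q was 0.614. Another 2 alternate peaks had 5 fragments, chr5_GL949742v1_alt:215917-216268 with a fold of 4.17 and chr8_KI270814v1_alt:47288-47553 with a fold of 3.18 on 2.46 floors. Among unlocalised peaks chr17_GL000205v2_random:56163-56477 was highest at 4.53 with 8 fragments on 2.73 floors, and chr16_KI270728v1_random:1036863-1037308 and chr1_KI270712v1_random:116696-117036 followed at 4.41. After chrUn_KI270442v1, the unplaced chrUn_KI270742v1:129888-130220 had 4.41 and chrUn_KI270748v1:55147-55446 had 4.15. The widest peaks were chr1_KI270763v1_alt:449083-450283 at 1201 bp, chrUn_GL000218v1:86618-87801 at 1184 bp and chr2_KI270716v1_random:127226-128238 at 1013 bp, with 2, 5 and 5 fragments.

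The ribosomal DNA units were looked at for SIRT1's known link to them. The RefSeq gene table (assembly GRCh38.p14) gives the 45S ribosomal RNA genes RNA45SN4, at 122273 to 135645 of a chromosome 22 contig, and RNA45SN5, at 105424 to 118780 of an unplaced contig. It does not name the contigs; from background knowledge they are chr22_KI270733v1_random and chrUn_GL000220v1. The positions of H3K27ac peaks bore on this assignment. At each of 5 records of the 45S gene, these and RNA45SN1, RNA45SN2 and RNA45SN3 on chromosome 21, an H3K27ac peak started 1099 to 1118 bp before the gene and ended 70 to 192 bp before it, with folds of 3.84 to 4.32. These copies are near-identical, so reads could be shared among them. The description that follows was chosen after the values were seen.

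On chr22_KI270733v1_random SIRT1 had 8 peaks. The 6 between positions 10578 and 89136, before the gene, had 2 to 4 fragments on at most 1.52 floors. The other 2 lay past the gene, and no SIRT1 peak lay in the gene itself. The first was the peak with the highest −log10 q, whose summit was 36447 bp from the gene's lower end. The second, chr22_KI270733v1_random:160195-160485, had 57 fragments on 93.1 floors, a fold of 1.67 and a −log10 q of 0.175. Both lay within 44 kb of the gene's lower end.

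H3K27ac had peaks in the same stretch. One, chr22_KI270733v1_random:159880-160665, overlapped the second SIRT1 peak and had a fold of 3.85 on 90.4 floors of its own list. Another, chr22_KI270733v1_random:159144-159404, lay between the 2 SIRT1 peaks with a fold of 1.72. Backgrounds were therefore high in both lists at this place.

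Other copies of the repeat differed. On chrUn_GL000220v1 the 5 SIRT1 peaks, with 2 to 5 fragments, all lay before position 69594, and 0 lay within the 44 kb from the start of RNA45SN5, where H3K27ac had peaks. Within 44 kb of RNA45SN1 on chromosome 21, a SIRT1 peak lay at chr21:8468657-8469105, with a fold of 2.0 and 44 fragments. Another lay at chr21:8469499-8469787, with a fold of 1.63, 38 fragments and a −log10 q of 0, as at 86.3% of all SIRT1 peaks. The start of the latter was 36277 bp from the gene's lower end, and that of the strongest contig peak 36281 bp. These starts differed by 4 bp and the summits by 33 bp. The pair was picked from 5 SIRT1 peaks after the values were seen. Reads could be shared between the copies, so the match does not show a second site. RNA45SN3 had a SIRT1 peak at chr21:8405958-8406296 with a fold of 1.98, starting 16923 bp from its lower end, and RNA45SN2 had none. Of these 5 SIRT1 peaks over 3 copies, 1 reached a q of 0.05, on the chromosome 22 contig, and the 3 on chromosome 21 had a −log10 q of at most 0.614.

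**Figure D5:**
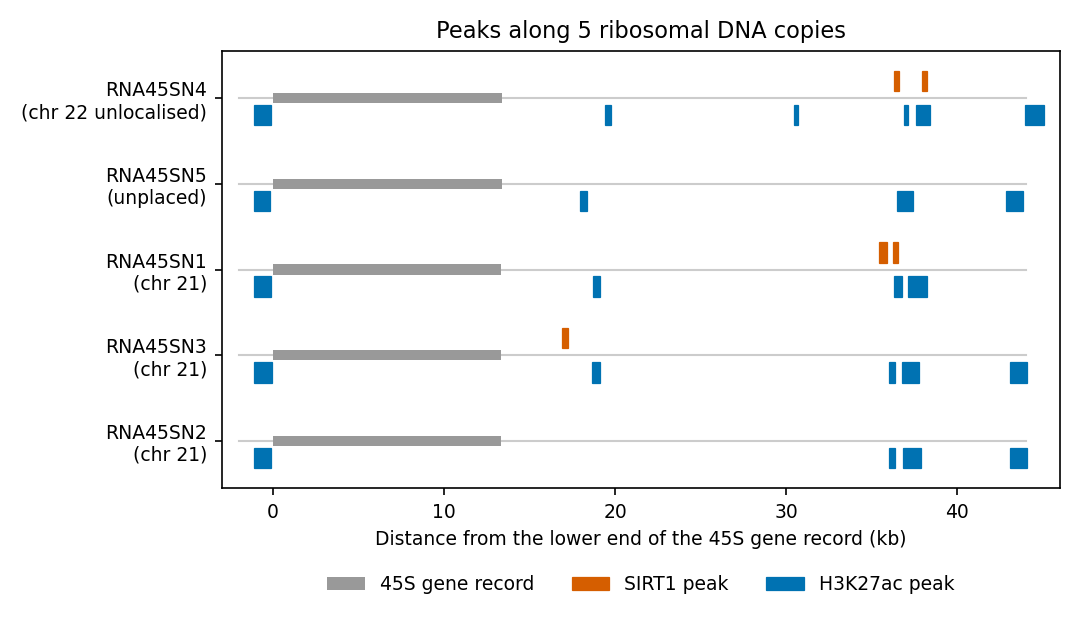
SIRT1 peaks (orange, above each line) and H3K27ac peaks (blue, below) along 5 copies of ribosomal DNA, by distance in kb from the lower end of the 45S gene record (grey); windows run from 2 kb before to 44 kb after it. An H3K27ac peak stands just before the gene in all 5 copies, and SIRT1 peaks near 36 kb stand in RNA45SN4 and RNA45SN1.

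Overlap with H3K27ac was rare on contigs, and its share did not differ from that on the primary chromosomes beyond counting error. At least 1 base was shared by 0.745% of all SIRT1 peaks, and on contigs by 9 of 1288 (0.699%, interval 0.320 to 1.32). The 9 were 6 of 923 alternate peaks (0.650%, 0.239 to 1.41), 1 of 221 unlocalised (0.452%, 0.0115 to 2.50) and 2 of 144 unplaced (1.39%, 0.169 to 4.93). On the primary chromosomes it was 712 of 95517 (0.745%, 0.692 to 0.802), and with 9 contig peaks a difference was not detectable.

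The alternate SIRT1 peaks in question had 2 or 3 fragments each. The strongest H3K27ac peak among their partners had a fold of 60.9 and covered all of chr16_KI270854v1_alt:132667-133227. Partners of chr14_KI270847v1_alt:1508458-1508844, chr17_KI270909v1_alt:226288-226552 and chr16_KI270853v1_alt:1231182-1231439 had folds of 19.1, 17.5 and 13.2. Those of chr15_KI270905v1_alt:3558835-3559144 and chr8_KI270816v1_alt:105406-105659 had 4.65 and 2.99. On unplaced contigs chrUn_KI270748v1:71722-72447, with 4 fragments on the floor, met a peak of fold 8.43, and chrUn_KI270742v1:109634-109949, with 3 fragments, met one of 7.79. The 9 included 0 of the 8 that passed the q of 0.05. With an overlap at 0.745% of all SIRT1 peaks, 0 among 8 shows no difference.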

How the data were processed

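ChIP-seq of PMA-treated THP1 cells was deposited as 1 peak list for H3K27ac and 1 for SIRT1. The submitters' processing notes name MACS2, deepTools and hg38. Tool versions, the aligner, the control and the handling of reads that match several sequences were not given in the sources used here, and the last can change both counts and background on contigs. Peak names carry the label of a duplicate-marking step, per the file contents. The fold (a ratio), the −log10 p and −log10 q, and the score, which was not used, were deposited by the authors. The lists were filtered differently: the smallest −log10 p in the SIRT1 list was 2.00, and the smallest −log10 q was 0 there and 1.30 for H3K27ac.

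Fragments n and background b were recovered from fold = (n + 1)/(b + 1) and a Poisson tail above n; 100% of SIRT1 and 99.998% of H3K27ac peaks gave a whole number. Tested on simulated data, the recovery was right for 100% of 1994 peaks made like SIRT1 and 100% of 1995 made like H3K27ac. A peak counts as on the floor within 0.001 floors of it.

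Peaks named were all contig peaks with a q of at most 0.05 or overlapping H3K27ac, per class the 3 highest in fold and fragments and the widest, and the 5 contigs with most peaks; ties were kept. Members, lists and rules were chosen with earlier results of these data known. The planned gene, GC and motif descriptions of contig peaks were not made, as contig sequence and annotation were not used here. Alternatives are in the closing section. Intervals came from scipy 1.17.1, with Python 3.11.15, pandas 2.3.3, numpy 2.4.6 and, for figures, matplotlib 3.10.9.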

Additional observations from a re-analysis of the deposited data

How the results depend on the processing

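Of 50 alternative values, 19 stayed within the counting interval of the reported value and 31 did not. This tally does not measure robustness. A limit on p, fold or q bears directly on the median fold and on the share with a q of at most 0.05. Settings that left 16 or 8 peaks were set against the interval of 1288, and 0% overlap among so few shows no difference. The 31 follow, and beyond the choice of peaks or contigs itself the cause was not tested. With a −log10 p of at least 3, contigs held 1.19% of SIRT1 peaks, 0.392 of the H3K27ac share, with 1.40% at a q of at most 0.05 and a median fold of 2.94. With a fold of at least 4, 16 contig peaks were left: 1.04% of the list, 0.319 of the H3K27ac share, 6.25% with that q, 18.8% above 2 floors, 0% overlapping H3K27ac and a median fold of 4.41. With a q of at most 0.05, 8 were left: 5.56% of the list, 1.82 times the H3K27ac share (0.436 as reported), 87.5% above 2 floors, 0% overlapping and a median fold of 3.16. Leaving out the contig with most peaks (73) gave 1.26% of the list. Unlocalised and unplaced contigs alone gave 0.381%, 3.71 times the H3K27ac share, 2.19% with that q, 18.4% above 2 floors and a median fold of 2.83. Alternate contigs alone gave 0.957%, 0.324, 0%, 0.542% and 2.20. The ratio of the lists' shares was thus above 1 without alternate contigs or with the q limit, and below 1 in the other settings run. Overlap of at least 50% of both peaks gave 0.233%, and 1.94% of contig peaks were above 3 floors. Peaks on at least 4 fragments, chosen after seeing the data, gave 1.24% of the list, 4.28% with that q and 35.3% above 2 floors. No paired analysis was possible because no groups of replicates were compared. The few fragments per peak limit every value here.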
